A study of Mus musculus with 4 samples.

Results

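Replacement histone variants are histones made outside S phase as well as in it. They stand in for the canonical histones at particular places in chromatin, and their mRNAs are polyadenylated, whereas most canonical histone mRNAs end in a stem-loop without a poly(A) tail. The 9 genes described here were taken by symbol from a fixed list and all 9 were found among the 17104 genes of the expression table. They are *H3f3a* and *H3f3b* (histone H3.3), *H2afz* and *H2afv* (H2A.Z), *H2afx* (H2A.X), *H2afj* (H2A.J), *H2afy* (macroH2A1), *H1f0* (linker histone H1.0) and *H1fx* (H1X).

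H3.3 is placed at active genes by the HIRA complex and at repeats by ATRX and DAXX. H2A.Z is exchanged into nucleosomes next to promoters by the SRCAP and EP400 remodelers. H2A.X is phosphorylated around DNA breaks, and macroH2A carries a large extra domain and is mostly found in repressed chromatin. In blood cells, as elsewhere, H1.0 is known as a linker histone that accumulates when cells stop dividing and mature.

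The study asked what CD37, a tetraspanin of the leukocyte membrane, does in leukemic stem cells (LSCs). Bone marrow cells of CD37 fl/fl mice with the Rosa26-CreERT2 allele, a tamoxifen-inducible Cre in every cell, were given the MLL-AF9 fusion with a YFP reporter and passed through C57 recipients. YFP+, c-kit+ cells were sorted from male mice 6 weeks after the secondary transplantation, with 2 libraries of CD37 fl/fl LSCs and 2 of CD37 -/- LSCs. Both groups carried the floxed alleles, Cre and MLL-AF9. The deletion was induced by tamoxifen and corn oil served as its control, so that tamoxifen exposure and loss of CD37 cannot be told apart. The labels call the replicates independent but do not say whether each came from 1 mouse, so p-values measure only the spread between these libraries. In sorted bulk cells, fewer cells of a kind and less RNA per cell cannot be told apart.

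The deposited values are FPKM (fragments per kilobase of gene, scaled to the size of the library). They came out as whole reads when the kilobases were those of the whole gene span, introns included, in GENCODE M21 on GRCm38. The totals were 15139063 and 17252340 reads for CD37 fl/fl and 17638604 and 22562837 for CD37 -/-. Levels of different genes were therefore compared per kilobase of exon, and group differences were computed on log2(FPKM + 1), where limma tested the 6761 genes whose FPKM averaged 1 or more. *Cd37* itself stood at 56.6 and 46.8 FPKM in CD37 fl/fl and at 23.2 and 22.9 FPKM in CD37 -/- LSCs. Of 9 markers of c-kit+ myeloid leukemia cells 8 were in the table, and their sum was 2281 and 2429 FPKM against 2275 and 2084 FPKM, most of it the neutrophil elastase gene *Elane*. The myeloperoxidase gene *Mpo* had 80.3 and 51.6 FPKM against 34.4 and 20.8 FPKM (log2 fold change -1.24, limma adjusted p = 0.141), and *Ptprc*, which encodes CD45, was at 0.87 (limma adjusted p = 0.117). *Kit* had 213 to 804 reads and *Cd34* 5 to 16 reads. Globin and other erythroid markers summed to 60.9 and 5.17 FPKM against 576 and 143 FPKM, with 7 of 8 genes in the table. Their part in the results below was not tested.

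No histone variant gene passed the test after adjustment. At an adjusted p under 0.05 limma called 0 of the 6761 genes (0.0%), and at an unadjusted p under 0.05 it called 1626 genes (24.0%). Of the 9 variant genes, 8 reached the filter and *H1fx* did not. Of those 8, 1 (*H2afy*) was higher with such an unadjusted p, against 16.1% of all tested genes, and 1 (*H2afj*) was lower, against 7.96%. Both counts are near the background. In both CD37 -/- libraries 4 of the 8 genes lay below both CD37 fl/fl libraries, against 23.7% of all tested genes, and 1 gene lay above them, against 38.2%. The median log2 fold change of the 8 genes was -0.36, with 6 of 8 below 0, and that of all tested genes was 0.11. Without CD37 -/- replicate 2 the median of the 8 genes was -0.17 and 4 of 8 were below 0. The median also depended on scaling, at -0.073 after quantile normalization, where *H3f3b* was at -0.099 and *H2afx* at -0.018, and at 0.017 after TPM rescaling, where *H2afz* and *H2afv* were above 0 and the median of all tested genes was 0.49.

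The variant genes were also set beside other genes of a like level. The 537 tested genes other than histones whose FPKM averaged 50 or more had a median log2 fold change of -0.43, and 52.1% of them lay lower in CD37 -/- without overlap. The 5 variant genes at that level (*H3f3b*, *H2afx*, *H2afj*, *H2afz* and *H1f0*) had a median of -0.48, with 4 of 5 lower without overlap. These medians were near each other, while *H2afj* at -0.97 lay further below 0. The comparison was chosen after the values were seen, and a part of level in the result was not tested.

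**Figure D1:**
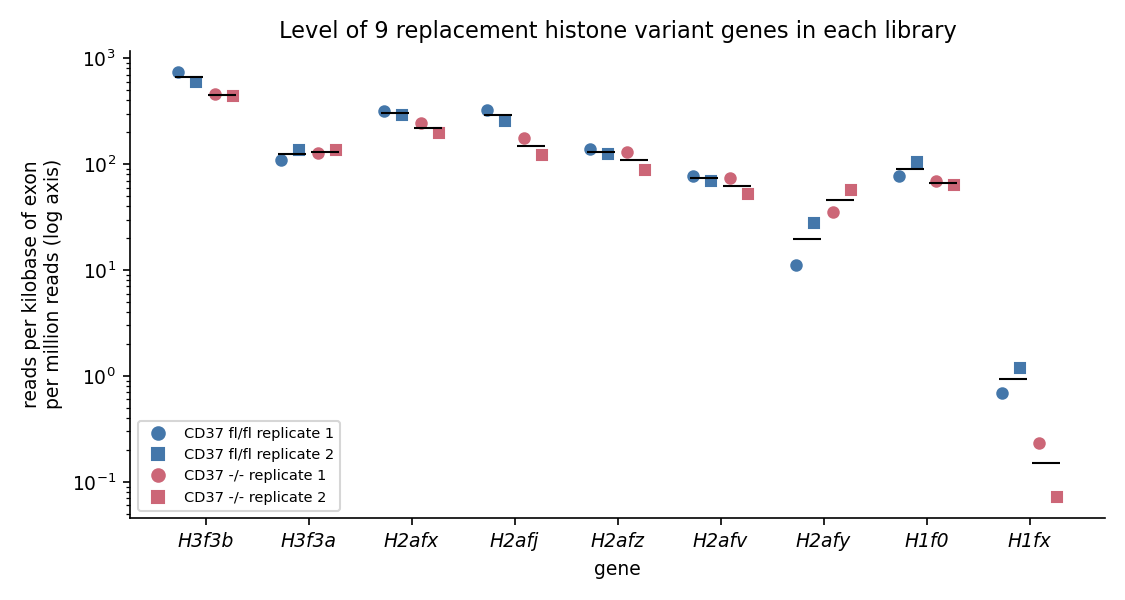
Level of each variant gene in the 4 libraries, as exon-length FPKM (per kilobase of exon) on a log axis. Points are libraries and black lines are group means. *H3f3b* is highest in all 4 libraries, and *H2afy* and *H1fx* show the widest gaps between the groups, in opposite directions.

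H3.3 is encoded by 2 genes with the same protein product and different mRNAs. *H3f3a* (ENSMUSG00000060743) lies on chromosome 1 of GRCm38 from 180800832 to 180813943, minus strand, and *H3f3b* (ENSMUSG00000016559) on chromosome 11 from 116021912 to 116027962, minus strand. Over their 411 coding bases they differ at 95 positions, an identity of 76.9%, and the longest identical run is 23 bases. The first 120 coding bases of each are shown because they let reads of the pair be told apart, with capitals at the 24 positions where they differ.
H3f3a: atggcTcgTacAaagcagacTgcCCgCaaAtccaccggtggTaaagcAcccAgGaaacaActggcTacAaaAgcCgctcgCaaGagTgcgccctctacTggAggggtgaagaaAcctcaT
H3f3b: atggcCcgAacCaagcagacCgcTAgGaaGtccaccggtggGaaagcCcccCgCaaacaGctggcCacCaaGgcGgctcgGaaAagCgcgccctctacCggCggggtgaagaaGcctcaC

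*H3f3b* had 365 and 294 FPKM in CD37 fl/fl and 225 and 216 FPKM in CD37 -/- LSCs. All CD37 -/- values were below all CD37 fl/fl values, and the CD37 -/- mean was 67.0% of the CD37 fl/fl mean (329 ± 50.0 against 221 ± 6.61, SD, n = 2 each). Its log2 fold change was -0.57 (standard error 0.28, limma adjusted p = 0.261). *H3f3a* had 29.5 and 36.6 FPKM against 33.7 and 36.5 FPKM. Its groups overlapped, and the log2 fold change of 0.09 (standard error 0.25, limma adjusted p = 0.84) lay within the spread between libraries, at -0.059 without CD37 fl/fl replicate 1.

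The balance between the pair was compared within each library, where a factor common to all genes of a library cancels. Per kilobase of exon, *H3f3b* exceeded *H3f3a* by 2.75 and 2.13 on the log2 scale in CD37 fl/fl LSCs and by 1.86 and 1.69 in CD37 -/- LSCs. The mean ratio went from 5.42 to 3.42, so that the ratio was lower in both CD37 -/- libraries. After quantile normalization, which does not cancel, *H3f3b* was at -0.099 and *H3f3a* at 0.19 in log2 fold change, closer together than the -0.57 and 0.09 without it. The difference of -0.66 was near the gap of 0.62 between the CD37 fl/fl libraries. With 2 libraries against 2 an exact two-sided permutation test cannot give a p under 0.333, and none was run. Summed over the pair, H3.3 transcripts stood at 852 and 734 against 584 and 576 (exon-length FPKM), 73.2% of the CD37 fl/fl mean.

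Processed pseudogenes limit the value of *H3f3a*. The annotation holds 33 pseudogenes that share at least 20% of their stretches of 25 bases with it, and 6 of them are in the table. They took 786 and 1367 reads in CD37 fl/fl LSCs, equal to 13.3% and 16.5% of those of *H3f3a*. In CD37 -/- LSCs they took 1530 and 2753 reads, or 19.5% and 25.5%. The largest share fell on *H3f3c*, annotated as a processed pseudogene on chromosome 2, of which 82.7% of the stretches occur in *H3f3a* and 0% in *H3f3b*. With all copies added to *H3f3a*, the reads of *H3f3b* per read of *H3f3a* were 5.04 and 3.19 against 2.58 and 2.18, still apart. For *H3f3b* the matching pseudogene reads were between 1.16% and 2.01% of its own.

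**Figure D2:**
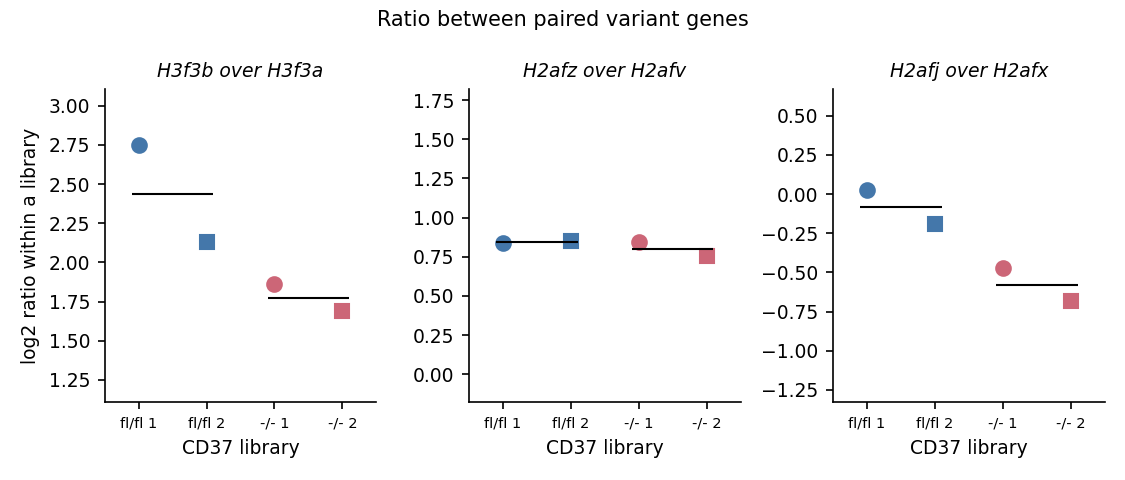
Log2 ratio of exon-length levels between paired variant genes in each library, with group means as black lines and the same height of axis in each panel. *H3f3b* over *H3f3a* and *H2afj* over *H2afx* are lower in both CD37 -/- libraries, and *H2afz* over *H2afv* stays between 0.75 and 0.85.

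H2A.Z is also made from a pair of genes, *H2afz* (ENSMUSG00000037894, chromosome 3 from 137864487 to 137866922, plus strand) and *H2afv* (ENSMUSG00000041126, chromosome 11 from 6427229 to 6444443, minus strand). Their 387 coding bases differ at 81 positions. *H2afz* had 101 and 90.5 FPKM in CD37 fl/fl and 95.8 and 64.0 FPKM in CD37 -/- LSCs, and *H2afv* had 7.35 and 6.54 FPKM against 6.95 and 4.94 FPKM. In both genes only CD37 -/- replicate 2 lay below the CD37 fl/fl range. The log2 fold changes were -0.29 (standard error 0.30) for *H2afz* and -0.21 (standard error 0.23) for *H2afv*, with limma adjusted p of 0.577 and 0.585. Without CD37 -/- replicate 2 they were 0.0023 and 0.0019, and without CD37 -/- replicate 1 they were -0.57 and -0.42.

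The pair kept a narrow ratio across libraries. *H2afz* exceeded *H2afv* by 0.84 and 0.85 on the log2 scale without CD37 deletion and by 0.84 and 0.75 with it, so that *H2afz* gave 66.0%, 66.2%, 66.1% and 64.7% of their joint reads. The 95% Wilson intervals of these shares all lay between 63.4% and 67.4%, and they cover counting error only. The *H3f3b* share of H3.3 reads, by the same measure, was 85.1% and 78.8% for CD37 fl/fl and 75.5% and 73.2% for CD37 -/-.

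*H2afx* (ENSMUSG00000049932, chromosome 9 from 44334694 to 44336077, plus strand) encodes the H2A that is phosphorylated at DNA breaks. Its mRNA is known in 2 forms, a short one that ends after a histone stem-loop and a longer polyadenylated one. The stem-loop motif, spelled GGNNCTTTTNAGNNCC and searched on the sense strand of transcripts, occurred in 1 of the 9 variant genes, in 69.8% of 53 replication-dependent histone genes and in 0.214% of 13558 other protein-coding genes of the table. The match in transcript H2afx-201 is shown because it marks the end of the short form. It starts 46 bases after the stop codon, at chr9:44335240-44335255 on the plus strand of GRCm38, and 822 bases of the annotated transcript follow it.
H2afx stem-loop: ggcccttttaagggcc

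*H2afx* had 319 and 294 FPKM in CD37 fl/fl and 243 and 197 FPKM in CD37 -/- LSCs, with no overlap. The CD37 -/- mean was 71.8% of the CD37 fl/fl mean, and the log2 fold change was -0.48 (standard error 0.28, limma adjusted p = 0.321). Reads from before and after the stem-loop are summed in these values, so the forms were not separated. The replication-dependent histones, most of which hold the stem-loop motif, had a median log2 fold change of -1.64 over 48 tested genes. Against 23.7% of all tested genes, all 48 of them were lower in both CD37 -/- libraries. *Hist2h2ac* (-2.55), *Hist1h4n* (-2.02) and *Hist1h3i* (-2.04) had the smallest p of these, each with a limma adjusted p of 0.0502.

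*H2afj* (ENSMUSG00000060032, chromosome 6 from 136808244 to 136810074, plus strand) encodes H2A.J, a variant that differs from canonical H2A mainly at its C-terminal end. It was the lowest of the 8 tested genes in its log2 fold change. *H2afj* had 325 and 258 FPKM in CD37 fl/fl and 175 and 123 FPKM in CD37 -/- LSCs (291 ± 47.8 against 149 ± 37.1, SD, n = 2 each). The groups did not overlap and the CD37 -/- mean was 51.2% of the CD37 fl/fl mean. The log2 fold change was -0.97 (standard error 0.32, limma adjusted p = 0.156), and the adjusted p ran from 0.0922 to 0.455 over 14 alternatives. It stayed below 0 in all of them, between -1.23 and -0.60.

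Within a library, *H2afj* also stood lower beside *H2afx*, a comparison chosen after the values were seen. Their log2 ratio was 0.03 and -0.19 against -0.47 and -0.68, so the groups were apart by -0.50 with gaps of 0.22 and 0.21 within them. *H2afj* and *H2afx* share 49 stretches of 25 bases in their transcripts, the only variant genes that share any. Reads that lie wholly within shared bases could come from either gene, and how many do was not tested.

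*H2afy* (ENSMUSG00000015937, chromosome 13 from 56073619 to 56136361, minus strand) encodes macroH2A1 and was the highest in its log2 fold change. It had 1.21 and 3.02 FPKM in CD37 fl/fl and 3.83 and 6.23 FPKM in CD37 -/- LSCs, from 1165 and 3278 reads against 4267 and 8842 reads. The low FPKM of a gene with so many reads goes with its span, which is 9.21 times its exon length. Per kilobase of exon its level was 19.5 ± 11.8 against 46.4 ± 15.6 (SD, n = 2 each). Both CD37 -/- libraries were above both CD37 fl/fl libraries, but the libraries of each group differed widely from each other. The log2 fold change was 0.99 (standard error 0.35, limma adjusted p = 0.171), and 1.30 with exon length. Without CD37 fl/fl replicate 1, the lowest library, it was 0.56. An antisense gene, *Gm47071*, overlaps *H2afy* and had 62 to 163 reads.

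The paralog *H2afy2*, which encodes macroH2A2 and is not among the 9 genes, was also higher in both CD37 -/- libraries. *H2afy2* (ENSMUSG00000020086, chromosome 10 from 61738665 to 61784147, minus strand) was covered by 44 and 16 reads in CD37 fl/fl LSCs and by 409 and 510 in CD37 -/- LSCs. The groups were apart, at an exon-length FPKM of 1.32 and 0.425 against 10.6 and 10.4. Its FPKM was under the filter. In the limma fit with exon length, where 10553 genes were tested and 0.152% had an adjusted p under 0.05, the log2 fold change of *H2afy2* was 2.66 (standard error 0.30, limma adjusted p = 0.0479). Its limma adjusted p was 0.251 without a filter on low values and 0.0696 with limma-voom on recovered reads, so the call held in 1 of 3 fits. *H2afy* had 22.3 times the exon-length level of *H2afy2* in CD37 fl/fl and 4.42 times in CD37 -/- LSCs.

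Promoters were matched in RefSeq for 8 of the 9 genes, from 250 bases before to 50 after a start site on GRCm38.p6. Those of *H2afj* and *H2afy*, the genes with the lowest and the highest log2 fold change, are shown in the direction of transcription. Capitals mark matches to the CCAAT box (CCAAT), the TATA box (TATAAA), the GC box (GGGCGG) and an E2F-type site (TTCCCGCC), searched on both strands. The first lies at chr6:136807998-136808297 (plus strand) and the second at chr13:56135501-56135800 (minus strand), whose start is 811 bases from the outermost annotated start of *H2afy*.
H2afj promoter: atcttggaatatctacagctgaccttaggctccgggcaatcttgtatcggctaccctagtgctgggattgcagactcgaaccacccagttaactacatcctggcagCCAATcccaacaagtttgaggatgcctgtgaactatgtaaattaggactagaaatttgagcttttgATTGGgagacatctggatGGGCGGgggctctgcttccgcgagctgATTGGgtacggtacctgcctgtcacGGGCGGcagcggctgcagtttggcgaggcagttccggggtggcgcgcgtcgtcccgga
H2afy promoter: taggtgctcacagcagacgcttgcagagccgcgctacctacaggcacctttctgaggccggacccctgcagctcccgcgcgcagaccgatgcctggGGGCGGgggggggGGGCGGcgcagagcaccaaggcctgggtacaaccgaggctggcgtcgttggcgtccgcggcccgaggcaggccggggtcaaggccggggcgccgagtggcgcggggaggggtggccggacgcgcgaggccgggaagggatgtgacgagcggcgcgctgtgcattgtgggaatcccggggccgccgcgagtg

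The *H2afj* promoter held 3 CCAAT matches and the *H2afy* promoter 0. Among the 8 promoters, CCAAT was found in 5 (*H2afj*, *H2afz*, *H2afv*, *H3f3a* and *H3f3b*), against 37.4% of all 32851 promoters. The GC box was found in 7, against 35.7%, the TATA box in 1 (*H3f3b*), against 13.6%, and the E2F-type site in 0, against 2.19%. The start used for *H3f3b* is 3458 bases from the outermost annotated start of that gene. Bases G and C made up 55% (*H3f3b*) to 77.7% (*H1fx*) of the 8 promoters, against a median of 52.7% over all promoters. The counts are therefore not set against promoters of like composition. These are matches of letters, and a link between them and the log2 fold changes was not tested.

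The linker histones had lower values in CD37 -/- LSCs. *H1f0* (ENSMUSG00000096210, chromosome 15 from 79028450 to 79030504, plus strand) had 76.6 and 105 FPKM in CD37 fl/fl and 68.8 and 63.5 FPKM in CD37 -/- LSCs. The groups were apart by less than the gap within CD37 fl/fl, and the log2 fold change was -0.43 (standard error 0.28, limma adjusted p = 0.373). It was -0.66 without CD37 fl/fl replicate 1, -0.21 without CD37 fl/fl replicate 2 and -0.057 after TPM rescaling. *H1fx* (ENSMUSG00000044927, chromosome 6 from 87980421 to 87981637, minus strand) was near the limit of detection, with 13 and 25 reads against 5 and 2. The values did not overlap, at 0.697 and 1.19 FPKM against 0.232 and 0.0726 FPKM. Without a filter on low values its log2 fold change was -0.74 (limma adjusted p = 0.265), and 4.59% of 16973 genes were lower at an unadjusted p under 0.05. In limma-voom on recovered reads its log2 fold change was -2.68 (limma adjusted p = 0.125), a fit in which 6.17% of 13056 genes were lower at an unadjusted p under 0.05. An antisense gene, *Gm5577*, overlaps 755 bases of *H1fx* and had 5 and 2 reads against 7 and 7 in CD37 -/- LSCs, more there than *H1fx* itself.

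**Figure D3:**
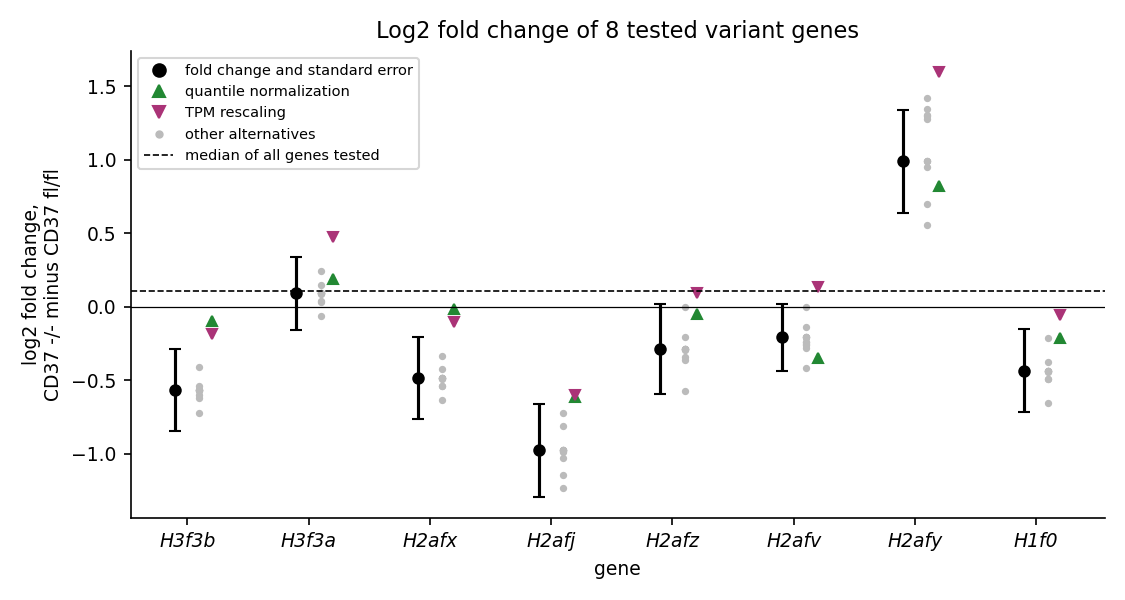
Log2 fold change (CD37 -/- minus CD37 fl/fl, on log2(FPKM + 1)) of the 8 tested variant genes, with standard errors from limma, beside the values under the alternatives. *H2afj* stays below 0 and *H2afy* above 0 under all of them, and TPM rescaling moves all 8 genes up.

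In order of level per kilobase of exon, CD37 fl/fl LSCs had *H3f3b* at 670 ± 102 (SD, n = 2), then *H2afx* at 307 ± 17.8, *H2afj* at 291 ± 47.8, *H2afz* at 131 ± 10.2, *H3f3a* at 124 ± 18.8, *H1f0* at 90.7 ± 19.96, *H2afv* at 73.2 ± 6.03, *H2afy* at 19.5 ± 11.8 and *H1fx* at 0.941 ± 0.345. Of these neighbors, *H2afx* and *H2afj*, *H2afz* and *H3f3a*, and *H1f0* and *H2afv* overlapped between libraries. In CD37 -/- LSCs the order was the same, except that *H3f3a* (131 ± 7.36) stood before *H2afz* (110 ± 30.9), and that pair overlapped again. There *H2afx* (220 ± 32.4) was apart from *H2afj* (149 ± 37.1), while *H2afj* overlapped *H3f3a* and *H2afv* (62.7 ± 15.0) overlapped *H2afy* (46.4 ± 15.6). The 9 genes together stood at 1801 and 1613 against 1312 and 1157.

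The variant genes were set beside the replication-dependent histones of the same family, by reads within a library. Reads of *H3f3a* and *H3f3b* were summed with those of 10 replication-dependent H3 genes. The H3.3 pair gave 96.9% and 96.6% of this sum for CD37 fl/fl and 98.7% and 98.8% for CD37 -/-. *Cenpa* and *H3f3c* were left out of it. *Cenpa* had 1804 and 2630 reads for CD37 fl/fl and 3201 and 3205 for CD37 -/-. *H3f3c* had 514 and 889 against 827 and 1781. With *Cenpa* counted in the sum, the H3.3 shares of the groups overlap. With both counted there, the share is lower in both CD37 -/- libraries, so the higher share rests on leaving them out. The 5 H2A variants gave 96.3% and 95.5% of their sum with 13 replication-dependent H2A genes, against 99.0% and 98.9%, with *H2afy2* left out. The H1 variants gave 54.0% and 60.2% of their sum with 5 replication-dependent H1 genes, against 68.7% and 71.0%. With those genes left out, the share of variants was higher in both CD37 -/- libraries in each of these sums. The variant genes themselves took less of all reads there (0.429% and 0.389% against 0.322% and 0.305%). The replication-dependent histones took 0.0473% and 0.0530% of all reads against 0.0185% and 0.0149%. The libraries were selected for poly(A) RNA, so these shares do not give the balance of all histone mRNA in the cells.

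**Figure D4:**
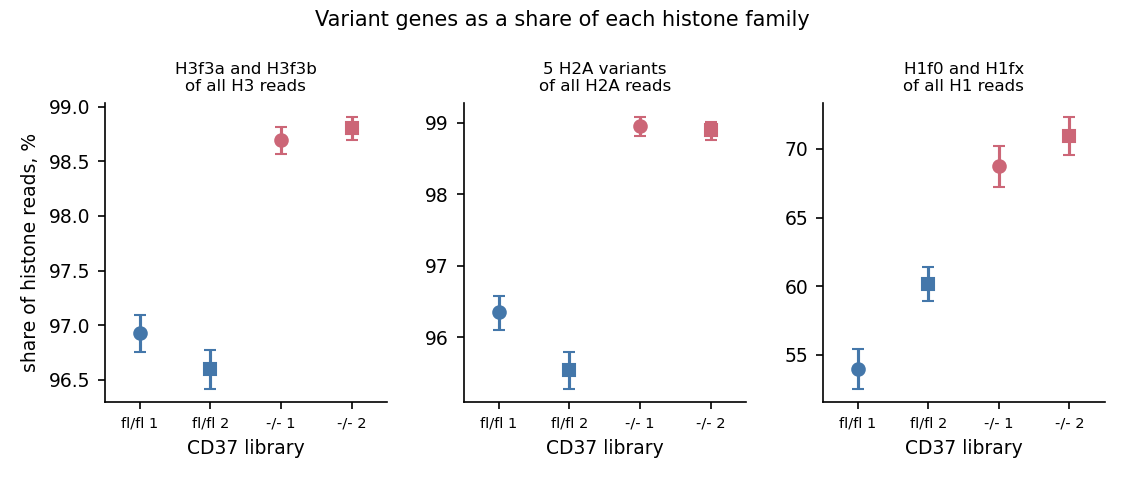
Reads of variant genes of the H3, H2A and H1 families as a percentage of their sum with the replication-dependent genes of that family, in each library. *Cenpa*, *H3f3c* and *H2afy2* are not counted. The 95% Wilson intervals cover counting error only. The axes do not start at 0, and all CD37 -/- libraries lie above all CD37 fl/fl libraries. In the H3 panel this does not hold once *Cenpa* is counted in the sum.

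The factors that place and remove these variants were read from fixed lists. Of 23 genes for H2A.Z deposition and removal, 16 were tested, with a median log2 fold change of 0.13 and 0 at an adjusted p under 0.05. At an unadjusted p under 0.05, 3 were higher (background 16.1%) and 1 was lower (background 7.96%), both near the background. In place of these 4, 2 genes passed the unadjusted threshold without CD37 fl/fl replicate 1 and 2 without CD37 -/- replicate 2. *Kat5*, the acetyltransferase of the EP400 complex, had 1.08 and 1.44 FPKM in CD37 fl/fl and 2.86 and 3.94 FPKM in CD37 -/- LSCs (log2 fold change 0.95, limma adjusted p = 0.103). *Actl6a*, an actin-related subunit of several remodelers, had 0.918 and 1.81 against 3.14 and 4.63 FPKM (1.05, limma adjusted p = 0.118). *Znhit1*, a subunit of the SRCAP complex, went the other way with 59.7 and 40.5 against 26.1 and 17.5 FPKM (-1.17, limma adjusted p = 0.135). With exon length, 22 genes of this list were tested, and 7 were higher (background 18.5%) and 1 lower (background 6.52%) at an unadjusted p under 0.05.

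Of 7 genes for H3.3 deposition only *Ubn1* and *Daxx* passed the filter, at log2 fold changes of 0.38 and 0.26 (limma adjusted p = 0.277 and 0.498). With exon length 6 were tested, with 0 higher (background 18.5%) and 1 lower (background 6.52%) at an unadjusted p under 0.05. The lower one was *Ubn2*, a HIRA complex subunit (log2 fold change -0.64, limma adjusted p = 0.187). Among 9 genes for H2A.X phosphorylation, its readers and the chaperone FACT, 4 were tested. Of these 1 was higher at an unadjusted p under 0.05 (background 16.1%). That was *Supt16*, the large FACT subunit, with 0.363 and 0.744 FPKM in CD37 fl/fl and 1.65 and 2.74 FPKM in CD37 -/- LSCs (1.03, limma adjusted p = 0.113). Its partner *Ssrp1* was at -0.13 (limma adjusted p = 0.768), and *Rnf168*, a ligase that acts after H2A.X phosphorylation, at 0.17 (limma adjusted p = 0.568).

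Of 8 general and replication-coupled chaperones 1 was higher at an unadjusted p under 0.05, *Chaf1a* of the CAF-1 complex (0.70, limma adjusted p = 0.137), and 0 were without CD37 fl/fl replicate 1 or without CD37 -/- replicate 2. *Asf1b* (0.45, limma adjusted p = 0.214) and *Nap1l4* (0.28, limma adjusted p = 0.384) did not pass that threshold, at which 16.1% of all tested genes were higher. Of 12 other variant genes 3 were in the table and 2 passed the filter. They were the centromeric H3 gene *Cenpa* (0.24, limma adjusted p = 0.57) and *H3f3c* (0.54, limma adjusted p = 0.405). *H3f3c* is the annotated pseudogene whose reads may be those of *H3f3a*. Of 21 tested genes of S phase and proliferation, 18 had a higher mean in CD37 -/- LSCs (3978 of 6761 over all genes), with a median log2 fold change of 0.48, and 0 passed after adjustment. At an unadjusted p under 0.05, 10 were higher, where 16.1% of all tested genes were, and 2 were left without CD37 fl/fl replicate 1 and 3 without CD37 -/- replicate 2. *Mcm4* (1.21), *Plk1* (0.87) and *Ccna2* (0.90) had the smallest p of this list, with limma adjusted p of 0.105, 0.117 and 0.129.

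**Figure D5:**
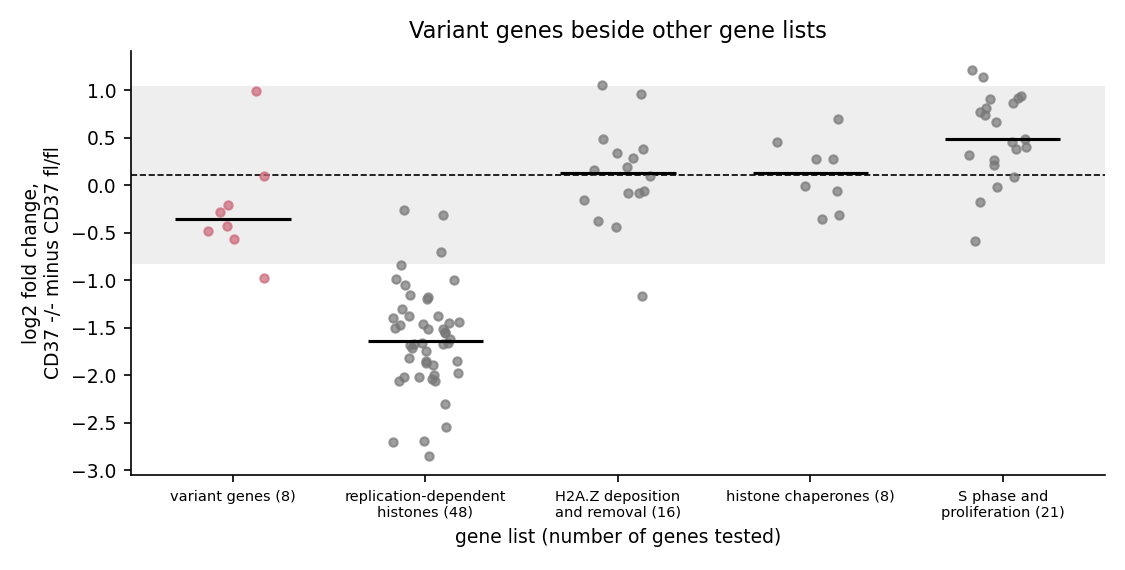
Log2 fold change of the 8 variant genes beside 4 other gene lists, each point a tested gene and each bar a median. The grey band spans percentiles 5 to 95 of all 6761 tested genes (-0.82 to 1.03) and the dashed line is their median of 0.11.

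The genes most like the leading variant of each family were found by the root mean square difference of log2(FPKM + 1), centered on each gene's mean, over the 4 libraries and 3068 candidate genes other than histones. They included *Sf3b5* (0.0063) and *Hsd17b10* (0.015) for *H2afx*, *Atg101* (0.044) and *Tnfaip8l2* (0.052) for *H3f3b*, and *Srpk1* (0.032) for *H1f0*. *Sf3b5* had 64.7 and 59.4 FPKM in CD37 fl/fl and 48.6 and 39.3 FPKM in CD37 -/- LSCs. With 4 libraries, closeness of this kind is a description.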

How the data were processed

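Poly(A) RNA of 4 libraries of sorted LSCs was sequenced, with 2 libraries in each group. The authors deposited FPKM values, 1 column per library, without a log. The submitters' processing notes name fastp 0.20.1, STAR 2.7.7a, featureCounts 2.0.0, edgeR and the build mm39, and the setting for strand is not given in the sources used here. Of the 17104 gene identifiers, 17045 were matched to GENCODE M21, whose spans gave whole reads (within 0.05) for 99.0% of values in each library, where chance gives 10%. Coordinates are therefore those of M21 on GRCm38. Genes with long introns have a low FPKM for their reads and can miss the filter.

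Genes whose FPKM averaged 1 or more were tested on log2(FPKM + 1), a scale that understates changes of low genes, with limma 3.58.1 (R 4.3.3, eBayes with a trend) without a replicate block, and Benjamini-Hochberg adjustment over all 6761 genes. The fit was tested on simulated data. Tables were made in Python 3.11.15 with pandas 2.3.3. Of each list, the 3 tested genes with the smallest p were named, beside all 9 variant genes and *Cd37*. *H2afy2*, *Ubn2* and the markers were named outside this rule, after their values were seen. The variant genes and lists were chosen with earlier results of these data known. Alternatives were a pseudocount of 0.1, a filter at a mean FPKM of 5 and no filter, TPM rescaling, quantile normalization, upper quartile division, blocking on the replicate number, robust estimation, leaving out a library, exon length, and limma-voom on recovered reads (genes averaging 10 or more). The comparisons with genes of high FPKM, with genes without introns and of *H2afj* with *H2afx* were added after the values were seen. Protein sequences were not used here. For *H1f0*, 1 further gene of like pattern is not reported here.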

Additional observations from a re-analysis of the deposited data

How the results depend on the processing

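Over all genes, 0 had a limma adjusted p under 0.05, also without each library in turn (0 to 0). There were 45 with a mean FPKM of at least 5, 88 with robust estimation and 16 with exon length. With the replicate number as a block there were 73, and the median of the variant genes stayed at -0.36. Deviations of same-numbered libraries correlated at -0.042 over genes. With 4 libraries this value cannot tell whether same-numbered libraries share a batch, and the labels do not say that they are paired. Unadjusted, 1626 genes had a p under 0.05, and 2911 without a filter, 755 with a mean FPKM of at least 5, 2639 with exon length and 3303 with limma-voom. Leaving out a library gave 809 to 1593, the lowest without CD37 -/- replicate 2. Of these genes 66.9% were higher, and 91.4% after TPM rescaling, 47.5% after quantile normalization and 50.3% with a mean FPKM of at least 5. None of the 9 variant genes had an adjusted p under 0.05 under any alternative.

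The median of the variant genes was -0.36. It was 0.017 after TPM rescaling, which moved the median of all tested genes from 0.11 to 0.49, and the distance from that median was -0.47 in both. After quantile normalization it was -0.073, only -0.05 from the median of all genes. Without a library it ran from -0.53 (CD37 -/- replicate 1) to -0.17 (CD37 -/- replicate 2). After TPM rescaling *H2afz* was at 0.092 and *H2afv* at 0.13. Leaving out a library, *H2afz* ran from -0.57 to 0.0023 and *H2afv* from -0.42 to 0.0019, both highest without CD37 -/- replicate 2. *H3f3a* ran from -0.059 without CD37 fl/fl replicate 1 to 0.24 without CD37 fl/fl replicate 2. *H2afj* and *H2afy* lost an unadjusted p under 0.05 without CD37 fl/fl replicate 1, without CD37 -/- replicate 2 and after quantile normalization. *H2afj* also lost it after TPM rescaling, and *H2afy* without a filter. The cause of these shifts was not tested.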

Other observations

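The annotated exons cover the whole span in 4 of the 9 variant genes, *H2afx*, *H2afj*, *H1f0* and *H1fx*. All 4 were lower in both CD37 -/- libraries, against 23.7% of all tested genes, but *H1fx* was not tested. The 3 that were tested had log2 fold changes from -0.97 to -0.43. Their FPKM all averaged 50 or more, a level at which other genes had a median of -0.43 and 52.1% lay lower without overlap. Of the 5 genes with introns, 3 were below 0 (the lowest *H3f3b* at -0.57) and 2 above. Among other protein-coding genes the median log2 fold change was 0.06 for 187 tested genes without introns and 0.12 for 5524 tested genes with introns, and 51 of the 187 were lower without overlap. This grouping was chosen after the values were seen, and it does not separate introns from level.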
